A study of Mus musculus with 20 samples.

Results

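The 49 mitosis genes described here were a list given by name, and all 49 symbols were present among the 16047 genes of the count matrix. The list was sorted by known role into 11 genes of mitotic entry, 8 of the checkpoint and anaphase, 7 of the kinetochore and centromere, 4 of the chromosomal passenger complex, 9 of the spindle, 7 of cytokinesis and 3 of chromatin. The genes were followed across the sort gates and across the authors' annotated states within each cell cycle phase.

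The cells were eYFP-positive B cells and plasma cells of lymph nodes, sorted one per well from C57BL/6 mice given NP-KLH in Sigma Adjuvant System and tamoxifen by gavage. All of them were collected at day 15 of the primary response, 4 days after tamoxifen, and the samples fall into C57BL/6F and C57BL/6M, told apart in the authors' cell table by the letters F and M under the heading Sexe. The age and number of the mice, and the driver of the eYFP label, are not given in the sources used here. Sex, animal and handling cannot be told apart between the groups, plates are the replicates, and the p-values below measure the spread between plates. Where counts were summed per group and state, each state had 2 pools. There the p-values rest on the spread left after state and group, estimated over the pools of all states together. The germinal centre is the site where B cells divide and mutate their receptors (dark zone), are selected (light zone), and leave as memory or plasma cells.

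Mitosis begins when cyclin B and its kinase Cdk1 become active, continues through capture of chromosomes by kinetochores on the spindle, and ends when the anaphase-promoting complex and its activator Cdc20 destroy cyclin B and securin. The transcripts of most genes on the list build up in G2 and fall after division, so their level in a population follows the share of cells in late cycle as well as the amount per cell. Germinal centre B cells are among the fastest dividing cells of the body, whereas a fully differentiated plasma cell has left the cycle. In counts summed over cells, fewer dividing cells and less RNA per dividing cell cannot be told apart, which is why gates are described first and phase-matched cells after them.

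The 20 plates held 1367 cells, 626 of C57BL/6F and 741 of C57BL/6M, with a median of 60540 counts and 1425 detected genes per cell. Plate totals ran from 3208858 to 11908095 counts, except plate 6 of C57BL/6F, which held 10 cells and 5979 counts and entered only 1 comparison of plate pools. The same 94 well barcodes recur on the plates, as a plate design has it, and 98 cells had no count of any mitosis gene. The plasma cell marker list summed to 18951.53 in annotated plasma cells and 4975.45 in dark zone cells, in CPM, the counts of a gene scaled to those of all genes of the class, and the germinal centre list to 118.5 against 1709.17. T cell markers summed to at most 3.01 CPM in every state except prePC.Mem (34.23 CPM). All of the prePC.Mem value was Cd8a, counted in 1.587% of the 63 cells of that state. Myeloid markers summed to between 1.9 CPM in prePC.Mem and 246.64 CPM in preMem cells, with 100.86 in plasma and 29.18 in dark zone cells. In plasma cells 95.11 CPM of that sum was Cd68, with Csf1r at 0.02193 and Adgre1 at 0 CPM. The part of such cells in the results was not tested.

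The 4 promoters printed here belong to the genes called lower in annotated plasma cells on plate pools of cells called G2M. They are Hmgb2, which binds and bends DNA, and Cdca8 (borealin), a subunit of the chromosomal passenger complex. With them stand Ccnb2 (cyclin B2) and Cks2, a small partner of Cdk1. The calls rest on 3 plasma pools with 15 cells in all, and each gene lost its call without at least 1 of these pools. On counts summed per group only Hmgb2 passed. Each promoter is the 250 bases before the annotated start, from RefSeq with the build GRCm38.p6, written 5′ to 3′ in the direction of the gene. Capitals mark TTTGAA or TTCGAA, the 2 forms searched of the cell cycle genes homology region (CHR), and CCAAT, the box bound by NF-Y, each on either strand. They lie at chr8:57511593-57511842 on the plus strand for Hmgb2, chr4:124936918-124937167 on the minus strand for Cdca8, chr9:70421555-70421804 on the minus strand for Ccnb2, and chr13:51644982-51645231 on the plus strand for Cks2.
Hmgb2: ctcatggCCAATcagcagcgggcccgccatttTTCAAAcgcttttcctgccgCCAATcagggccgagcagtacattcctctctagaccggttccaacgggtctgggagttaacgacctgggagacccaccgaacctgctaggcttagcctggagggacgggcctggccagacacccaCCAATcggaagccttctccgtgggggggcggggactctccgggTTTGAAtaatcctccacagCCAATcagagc
Cdca8: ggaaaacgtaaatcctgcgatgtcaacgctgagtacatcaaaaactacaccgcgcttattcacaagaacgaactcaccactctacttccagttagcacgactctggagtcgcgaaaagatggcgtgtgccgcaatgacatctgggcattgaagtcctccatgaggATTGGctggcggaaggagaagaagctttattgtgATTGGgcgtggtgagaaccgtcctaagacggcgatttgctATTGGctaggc
Ccnb2: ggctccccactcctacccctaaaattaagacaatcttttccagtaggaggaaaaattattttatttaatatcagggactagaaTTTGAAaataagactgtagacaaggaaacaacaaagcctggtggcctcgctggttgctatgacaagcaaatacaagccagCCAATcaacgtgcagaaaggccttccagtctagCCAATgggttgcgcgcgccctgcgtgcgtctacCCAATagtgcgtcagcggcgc
Cks2: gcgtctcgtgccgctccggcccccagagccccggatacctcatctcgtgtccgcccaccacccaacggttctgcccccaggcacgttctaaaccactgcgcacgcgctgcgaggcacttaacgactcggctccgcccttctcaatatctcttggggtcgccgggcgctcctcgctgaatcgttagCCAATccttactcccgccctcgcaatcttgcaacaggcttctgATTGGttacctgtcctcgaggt
The CHR is the element through which the MuvB complex holds many late cell cycle genes silent in resting cells and switches them on in G2. The 4 windows hold 4, 3, 3 and 2 CCAAT boxes in the order printed. A TTTGAA occurs in 2 copies before Hmgb2 and 1 before Ccnb2, and neither CHR form is among these letters before Cdca8 or Cks2. Of the 49 genes 42 had an entry, with 45 promoters in all. CCAAT was found in 77.8% of those 45 against 33.8% of all 32851 promoters of the same length, 2 or more CCAAT boxes in 53.3% against 10.1%, TTTGAA in 37.8% against 16%, and TTCGAA in 4.44% against 1.34%. A CHR form together with CCAAT stood in 37.8% of the mitosis gene promoters and 6.02% of all promoters. A match is a run of letters and not a measured binding site.

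Across the sort gates, which were set on surface protein rather than on transcripts, the mitosis genes stood at similar levels in dark zone, light zone and pre-plasma cells and lower in plasma cells. Their summed level, in CPM of each plate's pool over the 19 plates with all 4 gates, ran from 3702 to 18390 CPM in the dark zone gate, with a median of 11080. The light zone gate ran from 6011 to 16250 CPM around 12180, and the pre-plasma gate from 7096 to 17590 around 11620. The plasma cell gate ran from 900.3 to 7616 CPM around 4457, and it was below the dark zone gate of its own plate on 18 of 19 plates and below the light zone and pre-plasma gates on 19 of 19. As means over plates the 4 gates held 11420 ± 4145, 11800 ± 2860, 11830 ± 2297 and 3944 ± 1742 CPM (SD, n = 19 plates each). The first 3 gates differ by less than their spread over plates, and only the plasma cell gate stands apart.

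**Figure D1:**
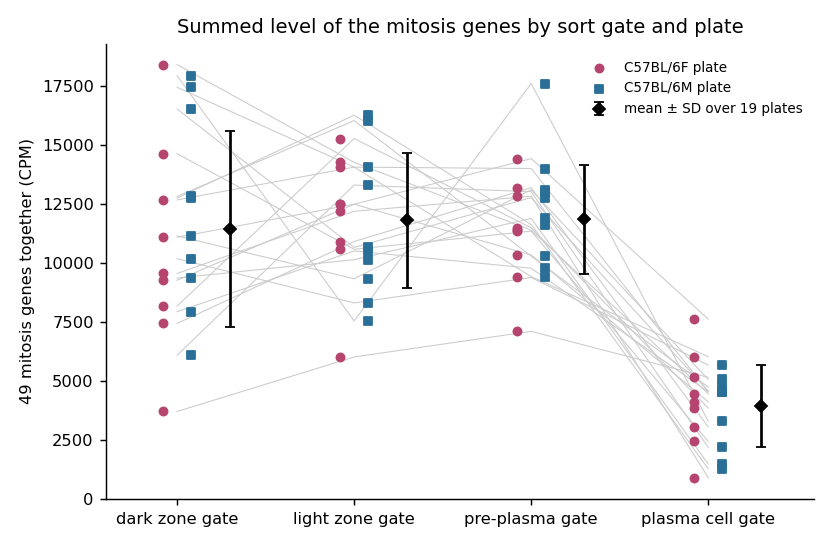
Summed level of the 49 mitosis genes in CPM (vertical axis, linear) in each sort gate. Each point is the pool of 1 plate, circles for C57BL/6F and squares for C57BL/6M, grey lines join the gates of a plate, and diamonds with bars give the mean ± SD over 19 plates. The plasma cell gate sits at 3944 ± 1742 CPM, the other gates between 11420 and 11830.

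Between the plasma cell gate and the germinal centre gates (dark and light zone together), 34 of the 49 mitosis genes fell, none rose, and all 49 estimates were below 0. The test was edgeR's quasi-likelihood test with the plate as block and Benjamini-Hochberg adjustment over 6865 genes, at an adjusted p under 0.05. It called 34.9% of all genes tested, 21.3% of them as lower, so a fall as such was common, and the share on the list was 34 of 49. A gene could pass the filter on low counts, applied before the test, through its germinal centre pools alone. Kif23, Cdc25b, Ckap2 and Ttk had no count in most plasma pools and could pass only in that way. Their calls, counted in the 34, are no finding. The median log2 difference was -1.89 over the mitosis genes and -0.50 over all genes. The genes that fell covered each role: 5 of 11 of mitotic entry, 4 of 8 of the checkpoint, 6 of 7 of the kinetochore, 3 of 4 of the passenger complex, 8 of 9 of the spindle, 5 of 7 of cytokinesis and 3 of 3 of chromatin. Of 117 other mitosis genes, 104 were tested, 48 fell and 2 rose. The lowest of these were Spag5 (astrin), a spindle protein, at -7.13 ± 0.88, Melk at -5.26 ± 1.38 and Pbk at -5.16 ± 1.03, and the higher pair was Cdc25a, the phosphatase that drives entry into S phase, at 3.26 ± 1.01 and Ncapg2, a condensin subunit, at 1.69 ± 0.65 log2 (SE).

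Among mitotic entry genes, Ccnb2 (cyclin B2) had between 274.7 and 742 TMM-scaled CPM in the germinal centre pools, with a median of 448.1, and between 1.277 and 343.6 in the plasma pools, with a median of 142.5. The plasma pool was lower on 19 of 19 plates, although the highest plasma pool exceeded the lowest germinal centre pool, and the difference was -2.03 ± 0.35 log2 (adjusted p = 5.87e-05, edgeR). Cdc25b, a phosphatase that removes the inhibitory phosphates from Cdk1, had a median of 53.47 CPM in germinal centre pools, whereas 10 of 19 plasma pools had no count of it (-4.19 ± 1.23, adjusted p = 0.00953). Nek2, a centrosome kinase, fell by 3.19 ± 0.93 on the log2 scale, with 6 plasma pools at 0. Cyclin B1 (Ccnb1), the partner through which Cdk1 starts mitosis, had 119.3 ± 77.08 CPM in plasma and 216.5 ± 99.31 in germinal centre pools (SD, n = 19 each). Its difference of -1.19 ± 0.55 missed the threshold (adjusted p = 0.0956), and plasma pools were higher on 6 of 19 plates.

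Of the checkpoint genes, Bub3, which brings the checkpoint kinases to unattached kinetochores, was the second most abundant member of the list by CPM, a scale of 5′ end counts not divided by gene length. It ran from 672.3 to 1377 CPM in germinal centre pools and from 0 to 903 in plasma pools, with medians of 947.2 and 480.8. The plasma pool was lower on every one of the 19 plates (-1.29 ± 0.33, adjusted p = 0.00353 by edgeR). Ttk (Mps1), the kinase at the head of the checkpoint, was scarce in both, with medians of 21.41 and 0 CPM (-3.36 ± 1.25, adjusted p = 0.0401). Bub1, Bub1b, Cdc20 and Ube2c did not pass.

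At the kinetochore, Ndc80, the subunit that grips the microtubule, had a median of 143.1 CPM in germinal centre pools and 18.14 in plasma pools. The lowest germinal centre value of 48.9 CPM lay below the highest plasma value of 64.68, so the groups overlapped at their edges, yet on no plate was the plasma pool higher (-4.12 ± 0.81, adjusted p = 0.000251). Cenpe, the kinetochore motor that moves chromosomes to the metaphase plate, had medians of 256.8 and 32.73 CPM and was likewise lower on all 19 plates (-3.11 ± 0.61, adjusted p = 0.000215). Spc24, the abundant inner subunit of the Ndc80 complex, fell less, from 409 ± 125.7 to 242.6 ± 164.9 CPM (-1.09 ± 0.33, adjusted p = 0.0121, edgeR). Subunits of the same complex thus gave estimates between -1.09 and -4.12 log2.

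In the passenger complex, Birc5 (survivin) had medians of 549.8 CPM in germinal centre and 264.5 in plasma pools (-1.49 ± 0.37, adjusted p = 0.00285). Cdca8 had 490.3 ± 132.2 against 129.5 ± 87.28 CPM and was higher in plasma cells on 1 of 19 plates (-2.32 ± 0.49, adjusted p = 0.000567). The scaffold subunit Incenp had a median of 91.69 against 4.423 CPM, with 8 plasma pools at 0 (-4.09 ± 1.01, adjusted p = 0.00265). The kinase of the complex, Aurkb, did not pass the test.

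The lowest estimate on the list belonged to a cytokinesis gene. Kif23, a motor of the centralspindlin complex that is needed for the cleavage furrow, had between 1.905 and 221 CPM in germinal centre pools around a median of 86.18, and no count at all in 13 of 19 plasma pools, whose highest value was 48.19. The fitted difference was -6.50 ± 1.13 log2 (adjusted p = 5.8e-05, edgeR), and since it rests on pools at 0 it is no measure of fold beyond the mean levels of 94.37 and 10.43 CPM. Kif11, the motor that pushes the spindle poles apart, had medians of 165.9 and 19.32 CPM (-3.44 ± 0.79), and Nusap1, which bundles spindle microtubules, 194 and 36.24 CPM (-2.76 ± 0.65). Kif20a, a motor of the central spindle, had medians of 182 and 32.59 CPM (-2.76 ± 0.76), and Ckap2, a microtubule stabiliser, 28.17 and 0 CPM (-4.16 ± 1.23). Neither Kif11 nor Nusap1 was higher in the plasma pool of any plate, whereas Ckap2, the scarcer gene, was higher on 4.

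The chromatin genes spanned the smallest and one of the firmest differences on the list. Hmgb2, the most abundant member, ran from 1292 to 2028 CPM in germinal centre pools around 1642 and from 24.28 to 566.2 in plasma pools around 402.1. The groups did not overlap on any plate or across plates (-2.53 ± 0.25, adjusted p = 1.06e-08, edgeR). Top2a, the enzyme that untangles sister chromatids, had medians of 262 and 112.9 CPM (-1.57 ± 0.35, adjusted p = 0.001). Mki67, whose protein Ki-67 coats mitotic chromosomes, had medians of 256.1 and 151.7 CPM and fell least of the genes called (-0.66 ± 0.23, adjusted p = 0.0302). It was higher in the plasma pool on 4 of 19 plates.

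**Figure D2:**
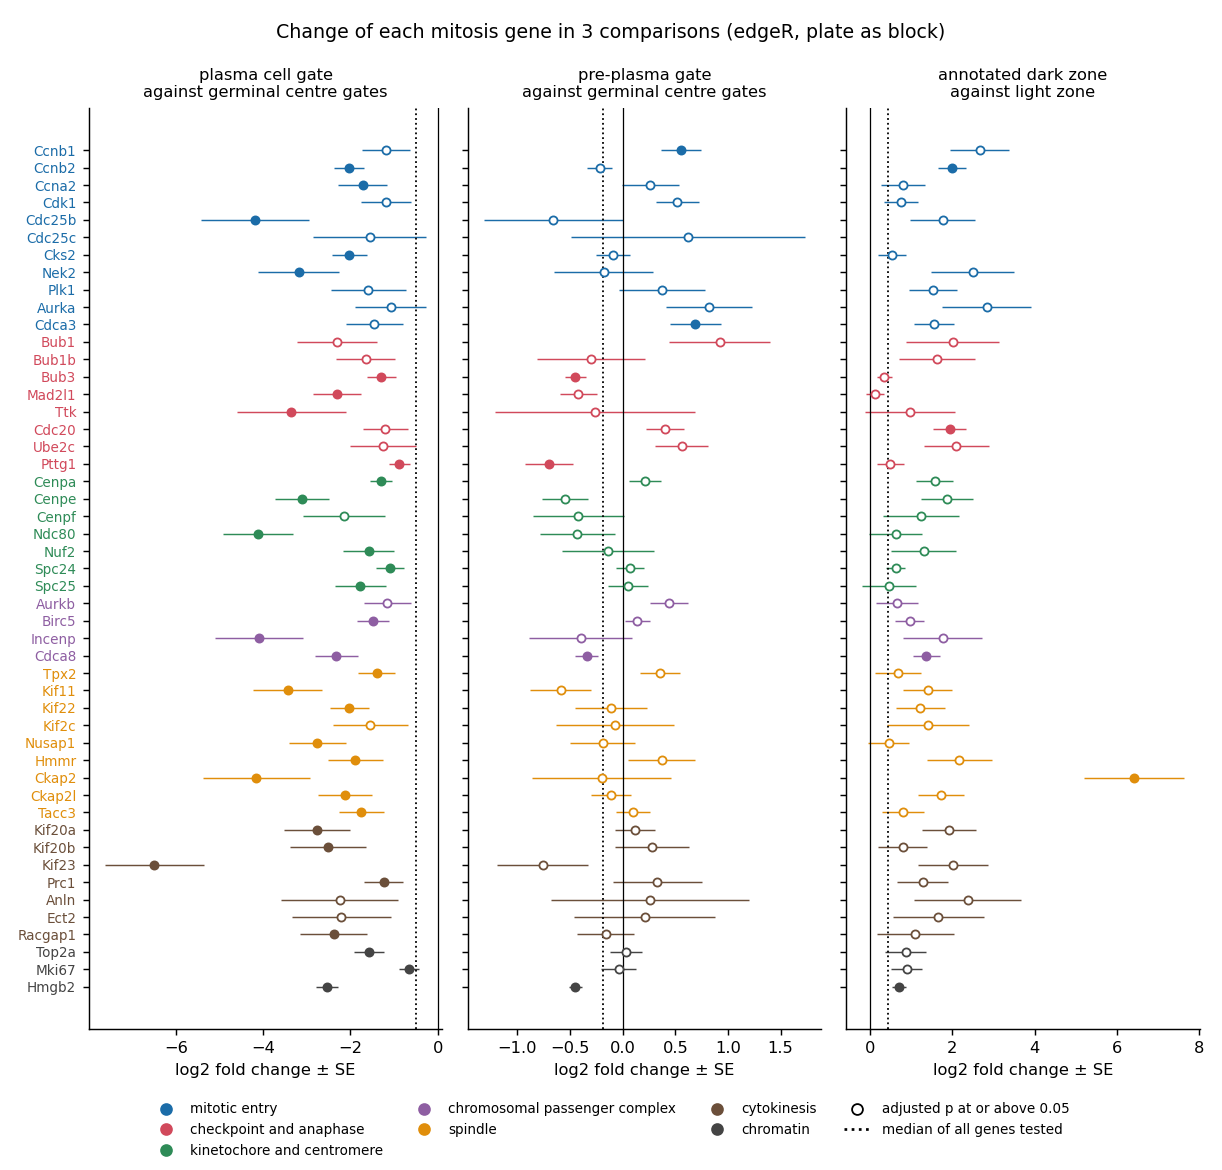
Log2 difference of each of the 49 mitosis genes (horizontal axis, bars are SE) in 3 comparisons, coloured by role, with filled points for an adjusted p under 0.05 and a dotted line at the median of all genes tested. In the plasma cell gate all 49 points lie below 0, in the pre-plasma gate they lie on both sides, and in annotated dark zone against light zone cells all 48 tested lie above 0.

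The pre-plasma gate, set against the same germinal centre pools, showed little movement of the mitosis genes in either direction. Of the 49 tested, 2 rose and 4 fell, where edgeR called 15.2% of 7150 genes (7.09% higher and 8.14% lower), and the median difference was -0.04 log2 against -0.19 over all genes. Cdca3, which helps to degrade the mitosis inhibitor Wee1, ran from 150.5 to 377.7 CPM around 265.7 in pre-plasma pools and from 43.68 to 341.2 around 202.5 in germinal centre pools. It was higher on 13 of 19 plates (0.69 ± 0.24, adjusted p = 0.0451). Ccnb1 had 326.8 ± 99.84 against 233.8 ± 104.6 CPM, also higher on 13 of 19 plates (0.55 ± 0.19, adjusted p = 0.0464). Both values stand just inside the threshold, the ranges of the gates overlapped, and neither gene passed on the plates of 1 group alone or with thinned cells.

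The 4 genes that fell in the pre-plasma gate were Hmgb2, Bub3, Cdca8 and Pttg1. Hmgb2 had medians of 1353 CPM in pre-plasma and 1781 in germinal centre pools and was lower on 19 of 19 plates, a small and regular difference of -0.45 ± 0.06 log2 (adjusted p = 5.19e-06). Bub3 had medians of 764.3 and 1046 CPM (-0.45 ± 0.10, adjusted p = 0.00245). Cdca8 fell by 0.34 ± 0.11 and Pttg1 (securin), the inhibitor that guards cohesin until anaphase, by 0.70 ± 0.23 on the log2 scale (adjusted p = 0.0439 and 0.043). Among the most abundant members, Birc5 (0.14 ± 0.12), Spc24 (0.07 ± 0.13) and Ccnb2 (-0.22 ± 0.12) did not pass, nor did Mki67 at -0.04 ± 0.17 and Top2a at 0.03 ± 0.15. Of 113 other mitosis genes tested, 3 rose and 5 fell. The rises were the kinetochore gene Cenpw at 0.91, the tubulin Tubb4b at 0.53 and Cks1b at 0.39 log2, and the deepest falls H2afx at -0.79, Stmn1 (stathmin) at -0.76 and the anaphase-promoting complex subunit Anapc11 at -0.75 log2.

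Set directly against the pre-plasma gate, the plasma cell gate was lower in 36 of 49 mitosis genes and higher in none (edgeR, 18.1% of 6564 genes called, 9.69% as lower). The median was -1.98 log2 against -0.27 over all genes. This comparison shares its plasma pools with the one above. Ccnb1 passed here, with medians of 132.1 CPM in plasma and 318.4 in pre-plasma pools, lower on 18 of 19 plates (-1.75 ± 0.49, adjusted p = 0.0135). Kif23 (-6.12 ± 1.32), Ckap2 (-4.46 ± 1.47), Ndc80 (-3.62 ± 0.85), Incenp (-3.43 ± 1.17) and Bub1 (-3.17 ± 0.90), the checkpoint kinase, had the lowest estimates. Kif23 and Ckap2 could pass the filter on low counts only through their pre-plasma pools, so their calls are no finding. Hmgb2 fell by 2.11 ± 0.25 and Mki67 by 0.67 ± 0.21 on the log2 scale.

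Plate by plate, 21.58% ± 8.38 of germinal centre gate cells and 6.307% ± 4.718 of plasma gate cells had the authors' call G2M (SD, n = 19 plates). The plasma share was lower on 18 of 19 plates, a difference of -15.27 percentage points (two-sided permutation test with 100000 sign flips, p = 5e-05, adjusted over 3 comparisons 0.00015). The pre-plasma gate held 28.17% ± 12.04, which was 6.596 points above the germinal centre gates and higher on 12 of 19 plates (permutation p = 0.0469, adjusted 0.0703). Dark and light zone gates held 21.85% and 22.89% of all their cells and did not differ beyond the spread over plates (permutation p = 0.734). The share and the summed transcripts both put the plasma cell gate lowest, and both may rest on the same genes.

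The authors' phase call needs this caution throughout. In the deposited table every G1 cell has both cycle scores under 0.15, 137 cells that its column named Phase calls S or G2M are G1 in its column named manualPhase, the call used here, and 34 of the 49 mitosis genes are on the 54-gene G2M list shipped with the Seurat package, 0 on its 43-gene S list and 15 on neither. Whether the authors scored with that list is not given in the sources used here. Levels by phase are therefore a description, and comparisons within a phase hold for cells matched on the call.

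Described that way, all 49 genes had their highest CPM in G2M cells, in germinal centre B cells and in plasma cells alike. They differed in how early they rose. In germinal centre cells the G2M level of Mad2l1, which holds Cdc20 in check, was 1.333 times its S level, and that of Hmgb2 1.441 times and Spc24 1.47 times. At the other end stood Ube2c, the ubiquitin-conjugating enzyme of the anaphase-promoting complex, at 8.099 times, Hmmr, a spindle protein, at 7.042 times, and Cdc25c, a phosphatase acting on Cdk1, at 6.266 times. In plasma cells Ube2c was again the steepest at 7.825 times, while Pttg1 at 1.03, Hmgb2 at 1.144 and Spc24 at 1.202 times were the flattest. Plk1, the kinase that drives entry and spindle assembly, rose from 88.69 to 499.1 CPM between S and G2M germinal centre cells, and Cdc20 from 167 to 943.1 CPM. In G1 germinal centre cells Hmgb2 still had 752.1 CPM and was detected in 63.2% of cells, and Bub3 686.2 CPM in 54.82%, whereas Ttk and Bub1 were each detected in 0.2538%. In G1 plasma cells Hmgb2 had 77.87 CPM and Bub3 267.8 CPM.

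**Figure D3:**
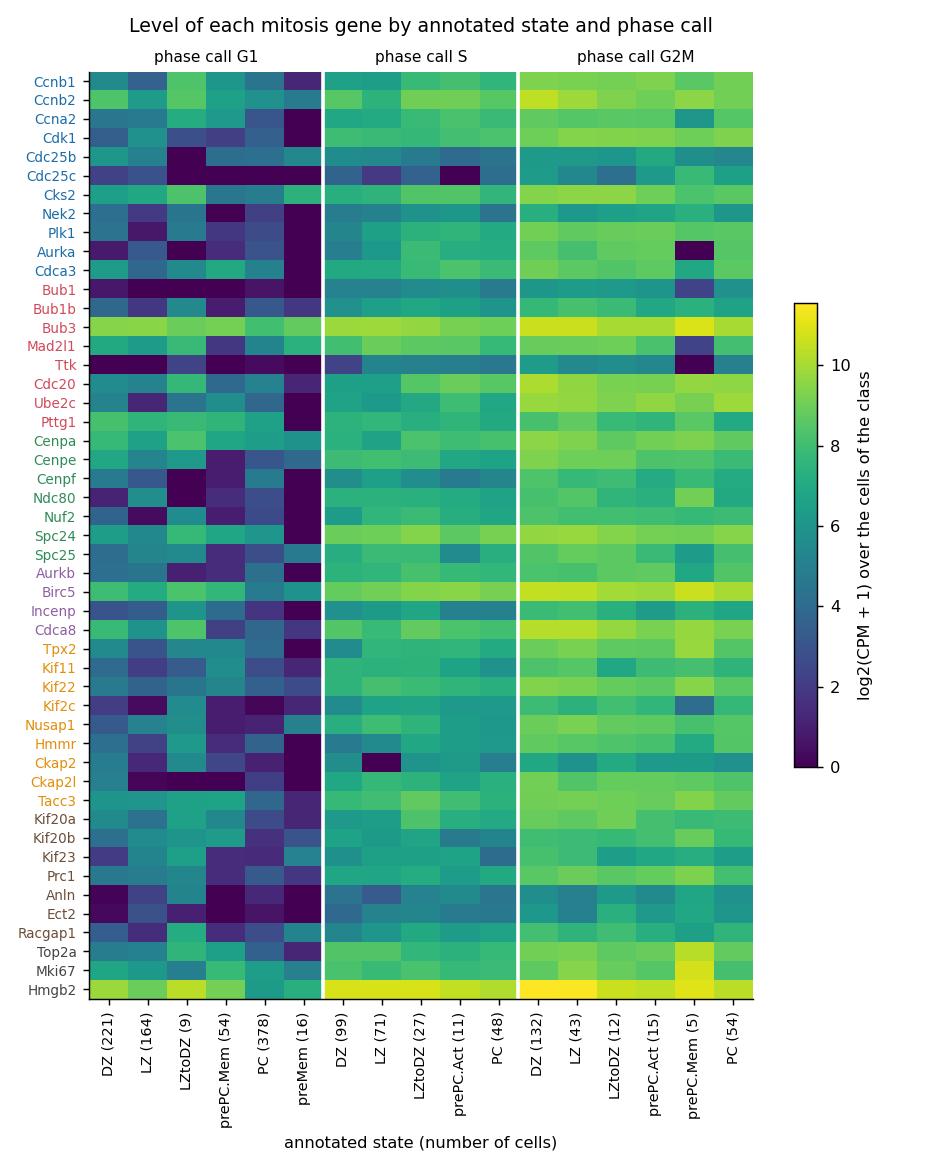
Level of each mitosis gene as log2(CPM + 1) over all cells of a class (colour scale), with annotated states grouped by phase call from left to right and the number of cells in brackets; names are coloured by role. Pooled over states, all genes are highest in G2M cells. In G1 germinal centre B cells Hmgb2 and Bub3 are highest, at 752.1 and 686.2 CPM. In G1 plasma cells Bub3 is at 267.8 CPM and Hmgb2 at 77.87 CPM, below Pttg1 at 96.91 CPM.

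The annotated states differed widely in their share of G2M calls. The state prePC.Act had 15 of 29 cells in G2M, 51.72% with an exact 95% interval of 32.53 to 70.55 that covers counting error only. Dark zone cells had 29.2% (25.05 to 33.63), light-to-dark zone cells (LZtoDZ) 25% (13.64 to 39.6), light zone cells 15.47% (11.43 to 20.26), plasma cells 11.25% (8.565 to 14.42) and prePC.Mem cells 7.937% (2.627 to 17.56). No preMem cell of 17 was called G2M, which allows a share of up to 19.51% by the same exact interval. The column named Phase gave dark zone cells 37.61%, light zone cells 19.42% and prePC.Mem cells 22.22%. The median depth per cell was 229900 counts in prePC.Act, 161600 in LZtoDZ, 70190 in plasma, 56250 in dark zone, 43120 in light zone and 16640 in prePC.Mem cells, and the part of depth in these shares was not tested.

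**Figure D4:**
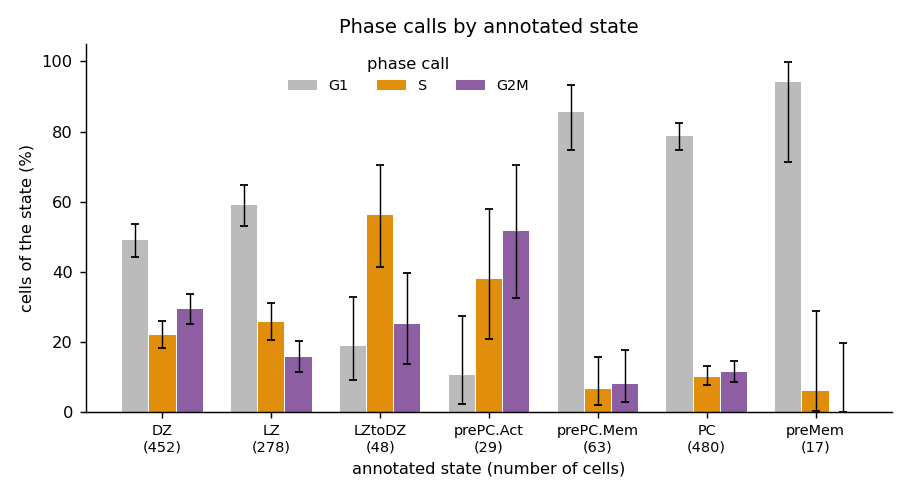
Share of cells with each phase call in % (vertical axis) per annotated state, with the number of cells in brackets; bars start at 0 and error bars are exact 95% binomial intervals. G2M is the largest class in prePC.Act at 51.72%, and G1 the largest in plasma cells at 78.75%.

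Of the 480 cells annotated as plasma cells, 128 came from the pre-plasma gate, 351 from the plasma cell gate and 1 from the dark zone gate, and the levels of most mitosis genes were higher in the pre-plasma gate. Of the 128 24.22% (exact interval 17.09 to 32.58) were called G2M while 6.553% of the 351 were (4.199 to 9.67). In C57BL/6F the shares were 22.22% and 7.534%, in C57BL/6M 26.15% and 5.854%. The median cell had 106200 counts and a spike-in share of 2.271% in the pre-plasma gate, and 64070 counts and 3.522% in the plasma cell gate. The summed level of the 49 genes was 9686 CPM against 3985 CPM. In the pre-plasma gate 47 of 49 genes were higher over both groups, 49 of 49 in C57BL/6F and 47 of 49 in C57BL/6M. Over both groups Pttg1 (107.9 against 113.5 CPM) and Cenpf (50.96 against 54.53 CPM) were lower. The share of all genes that were higher was not counted, so these counts do not set the list apart. Ccnb1 had 260.5 CPM in annotated plasma cells of the pre-plasma gate and 111.3 in those of the plasma cell gate, Birc5 584.9 and 217.6, Hmgb2 977.4 and 302.8, and Kif23 44.55 and 10.46. These are levels over all cells of a class, read after the other results were known, and were not tested. The pre-plasma gate also held 63 dark zone, 29 prePC.Act and 27 prePC.Mem cells.

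With the annotation in place of the gate, annotated plasma cells of both gates together were lower than annotated germinal centre B cells in 20 of 49 mitosis genes, with none higher (edgeR, plate as block, 30.9% of 7649 genes called, 15.8% as lower). The median was -0.87 log2, against -0.25 over all genes. Kif23 (-2.36 ± 0.59), Incenp (-2.04 ± 0.70), Cenpe (-1.84 ± 0.34), Kif11 (-1.65 ± 0.50) and Ndc80 (-1.63 ± 0.42) had the lowest estimates. Cdca8 fell from 502.9 ± 123.9 to 207.4 ± 62.79 CPM and Ccnb2 from 527 ± 113.7 to 237.9 ± 86.95 CPM (SD, n = 19 pools each), and Ccnb2 was lower on every plate. Because the annotation may have used the same transcripts, this describes the states.

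The dark zone and light zone gave one picture by gate and another by annotation. By gate, 0 of 49 mitosis genes passed (edgeR called 0.305% of 5904 genes), 1 had an unadjusted p under 0.05, and DESeq2 also called 0. Of the 49 estimates, dark against light, 39 lay below 0 and 10 above, with a median of -0.34 log2 against -0.11 over all genes. Ccnb2 was at 0.38 ± 0.21, Hmgb2 at 0.06 ± 0.08 and Mki67 at -0.41 ± 0.22 log2. By annotation, all 48 genes tested were above 0 and 5 rose in dark zone cells, where edgeR called 1.41% of 5447 genes, 0.845% as higher, and the median was 1.33 log2 against 0.44 over all genes. The annotation may have used the same transcripts, so these calls, and those between annotated states within a phase below, describe the states. The dark zone gate held 249 annotated dark zone and 61 light zone cells, and the light zone gate 139 and 189.

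The 5 genes higher in annotated dark zone cells were Ccnb2, Cdc20, Cdca8, Ckap2 and Hmgb2. Ccnb2 ran from 421.7 to 1073 CPM around 667.4 in dark zone pools and from 3.793 to 625.2 around 241.2 in light zone pools, higher on 18 of 19 plates (1.99 ± 0.34, adjusted p = 0.000645). Cdc20 had medians of 427.1 and 140.2 CPM (1.93 ± 0.41, adjusted p = 0.00695), and Cdca8 694.2 and 285.8 CPM (1.36 ± 0.33, adjusted p = 0.0248). For Hmgb2 they were 2044 and 1410 CPM, higher on 18 of 19 plates (0.70 ± 0.16, adjusted p = 0.0121, edgeR). Ckap2 had no count in 14 of 19 light zone pools and 54.61 CPM in the median dark zone pool (6.41 ± 1.21, adjusted p = 0.00242). It could pass the filter on low counts only through its dark zone pools, so its call is no finding. Ccnb1 had medians of 274.4 and 43.99 CPM but missed the threshold at 2.66 ± 0.72 (edgeR, adjusted p = 0.0667). Its highest light zone pool held 480.3 CPM, and the part of that pool was not tested. Mki67 at 0.89 ± 0.38 and Top2a at 0.86 ± 0.50 log2 did not pass either. On C57BL/6F plates alone none of the 5 passed, and on C57BL/6M plates alone Ccnb2 and Hmgb2 did.

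Within cells called G1, only the genes with counts outside mitosis could be compared. Of 49 genes 18 passed the filter on low counts between annotated plasma and germinal centre B cells and 31 did not, and 7 fell (edgeR, 28.4% of 5538 genes called, 11.9% as lower). A gene could pass that filter through its germinal centre pools alone, so the direction of the genes tested is no finding. Hmgb2 ran from 0 to 452.6 CPM around 61.29 in plasma pools and from 235 to 1155 around 686.6 in germinal centre pools, lower on 19 of 19 plates (-3.87 ± 0.56, adjusted p = 4.88e-06). Cdca8 had medians of 1.645 and 143.5 CPM, again lower on 19 of 19 plates (-4.66 ± 0.83, adjusted p = 9.28e-05). Cenpe (-4.00 ± 1.09), Ccnb2 (-2.53 ± 0.73), Cks2 (-1.88 ± 0.67), Bub3 (-1.11 ± 0.24) and Pttg1 (-0.95 ± 0.34) were the others. Mki67 had medians of 87.6 CPM in G1 plasma pools and 65.28 in G1 germinal centre pools (0.57 ± 0.67, adjusted p = 0.602). On counts summed per group and state, where all 49 genes were tested, Cdca8 (-2.75 ± 0.45) and Hmgb2 (-2.68 ± 0.28) fell (edgeR, 4.26% of 11321 genes called). Of the 49 estimates 20 lay above 0 and 29 below, with a median of -0.60 log2 against 0.23 over all genes. Both plasma pools lay below all 4 dark and light zone pools for 11 genes, against 12.7% of all genes, and above them for 1, against 21.7%.

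The 3 genes that passed between annotated dark and light zone cells called G1 were the same as 3 of those above, among 12 tested (edgeR, 1.22% of 3374 genes called, 0.8% as higher). Here too a gene could pass the filter through its dark zone pools alone. Ccnb2 had medians of 299.3 and 0 CPM, with 10 of 19 light zone pools at 0 (5.59 ± 1.25, adjusted p = 0.0156). Cdca8 had 255.2 and 2.851 CPM (4.59 ± 1.18, adjusted p = 0.0474). Hmgb2 had 1036 and 494.7 CPM and was higher on 18 of 19 plates (1.09 ± 0.26, adjusted p = 0.0286). On counts summed per group, 1 gene passed, the spindle gene Ckap2l, with 24.27 and 38.58 CPM in dark zone and at most 0.2702 in light zone pools (7.46 ± 1.14, adjusted p = 0.00488, edgeR, 0.0177% of genes called). In that fit, with all 49 genes tested, 31 estimates lay above 0 and 18 below, with a median of 0.90 log2 against 0.05 over all genes.

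Within cells called S, too few plates held 5 plasma cells for a test over plates. On counts summed per group and state, 0 of 49 genes passed between plasma and germinal centre cells (edgeR, 2.66% of 11321 genes called, 4 members at an unadjusted p under 0.05), and the median was 0.03 log2. Both plasma pools were below all 4 dark and light zone pools for 8 genes, against 11.5% of all genes, and above them for 10, against 13.2%. Among the 8 were Hmgb2, with 1212 and 1057 CPM in the C57BL/6F and C57BL/6M plasma pools and 1768 to 2044 in the others, and Top2a. Among the 10 were Ccnb1, Cdk1, Aurka, Cdc20 and Birc5; Cdk1 had 341.4 and 277 CPM in plasma pools and 170 to 262 in the others. Dark and light zone cells called S differed in 0 of 44 genes tested (edgeR on 12 and 6 plate pools, 0.156% of 5144 genes called, 3 members at an unadjusted p under 0.05). Summed per group, 0 of 49 passed, with 3 members unadjusted and 0% of all genes called.

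Among cells called G2M, plasma cells and germinal centre B cells are matched on the phase call, which may rest on the listed genes. Between 3 plate pools of annotated plasma cells and 18 of germinal centre B cells, 4 of 49 genes were lower and none higher (edgeR with the group as block, 3.57% of 8227 genes called, 1.74% as lower), with a median of -0.68 log2 against -0.34 over all genes. Hmgb2 had 1591, 668.8 and 1696 CPM in the plasma pools of plates 8, 11 and 17, and from 1570 to 3824 around 2833 in the germinal centre pools (-1.11 ± 0.24, adjusted p = 0.00448). Cdca8 had 451.6, 544.9 and 511.6 CPM in the same order, all below the lowest germinal centre pool of 777 and its median of 1191 (-1.29 ± 0.27, adjusted p = 0.00302). The plasma pools of Ccnb2 held 769.1, 499.3 and 501.3 CPM, also all below the germinal centre range of 925.1 to 1923 (-1.01 ± 0.25, adjusted p = 0.0127). Cks2 held 302, 102.1 and 362.8 CPM against 419.5 to 1092 (-1.44 ± 0.38, adjusted p = 0.0219). For Hmgb2 the ranges overlapped at their edges. The 4 genes were called on these same pools, so how far their ranges lie apart adds no support. How many of all genes lie apart in these pools was not counted. Without the plasma pool of plate 11 only Cdca8 passed (-1.31), with Hmgb2 at -0.78, Ccnb2 at -0.90 and Cks2 at -1.04 log2 short of the threshold, without plate 8 only Hmgb2 and Ccnb2 of the 4 did, and without plate 17 all but Ccnb2. These are the genes whose promoters are printed above.

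The other 45 genes of the list did not pass between the same G2M cells. Cyclin B1 (Ccnb1) had 595.8 ± 44.12 CPM in plasma (n = 3) and 605 ± 203.1 in germinal centre pools (n = 18), a difference of -0.02 ± 0.34 log2. Mki67 at -0.95 ± 0.43 and Top2a at -0.60 ± 0.41 log2 were short of the threshold (edgeR, adjusted p = 0.3 and 0.487). Of 116 other mitosis genes tested, 2 fell, the microtubule regulator Stmn1 at -1.91 ± 0.37 and the histone variant H2afz at -0.79 ± 0.23 log2. Each of the 3 plasma pools held 5 cells.

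On counts of all G2M cells summed per group, the plasma state (54 cells) could be set against dark zone (132) and light zone (43) cells with 2 and 4 pools. One gene passed, Hmgb2, with 1192 and 1363 CPM in plasma pools and 2595 to 3489 in the others (-1.23 ± 0.25, adjusted p = 0.00445, edgeR, 2.88% of 11321 genes called), but not without the C57BL/6F plasma pool (-0.86). Both plasma pools lay below all 4 others for 21 of 49 genes, where 9.61% of all genes did, and above them for none, where 15% of all genes did. The 21 were Ccnb2 and Cks2 of mitotic entry, Bub1b and Bub3 of the checkpoint, Cenpa, Cenpe, Cenpf, Ndc80 and Spc25 of the kinetochore, Birc5 and Cdca8 of the passenger complex, Tpx2, Kif11, Kif22, Nusap1 and Tacc3 of the spindle, Kif20a and Kif23 of cytokinesis, and Top2a, Mki67 and Hmgb2 of chromatin. The other 28 overlapped. Ube2c was one of them, with 934.3 and 854.2 CPM in plasma pools and 690.9 to 1034 in the others, and so was Cdk1, with 609.4 and 603.9 CPM in plasma pools and 381.9 to 777.9 in the others. Between dark and light zone cells called G2M, no gene of the 49 passed in this fit, which called 0% of all genes and no member at an unadjusted p under 0.05. On 14 dark zone and 2 light zone plate pools edgeR called 1 of 49, Nek2, with 48.83 to 379.1 CPM in dark zone pools and no count in the light zone pools (1.54% of 7974 genes called, with a median of 3.38 log2 over all genes against 0.64 over the members). Nek2 could pass the filter on low counts only through its dark zone pools, so its call is no finding.

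**Figure D5:**
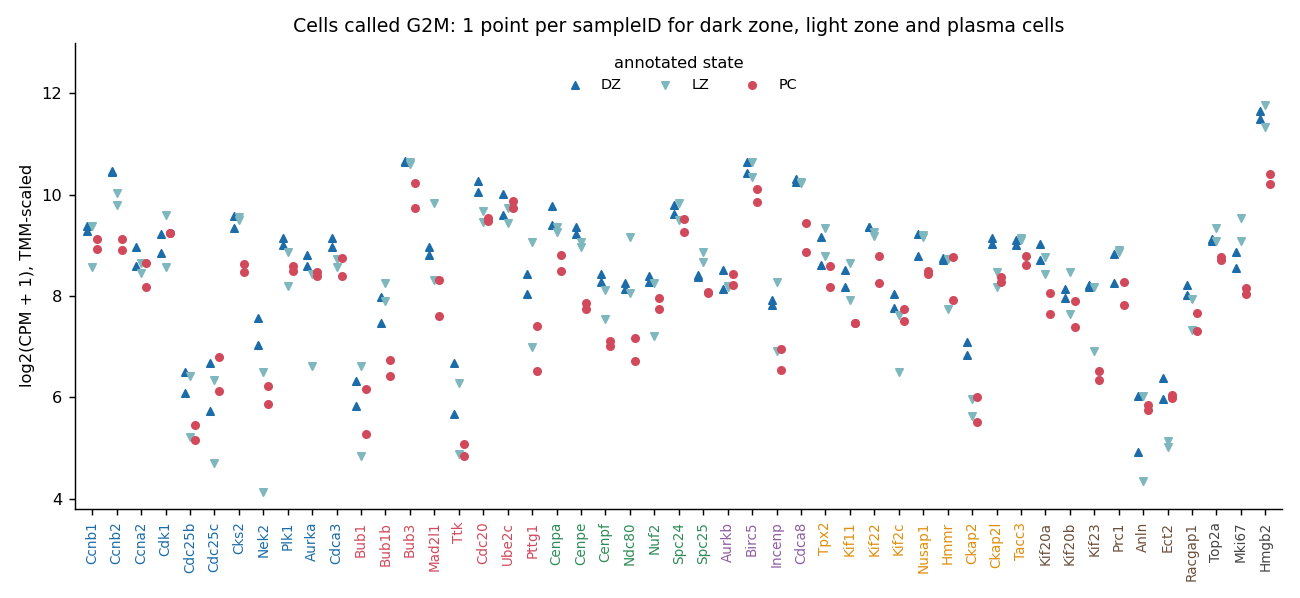
Level of each mitosis gene as log2(CPM + 1) with TMM scaling in cells called G2M (vertical axis), 1 point per group for annotated dark zone (DZ), light zone (LZ) and plasma cells (PC); names are coloured by role. Both plasma points lie below all 4 others for 21 of 49 genes, Hmgb2 and Cdca8 among them, and above them for none.

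Depth and spike-in shares moved with these classes. The median G2M cell had 154600 counts in plasma, 72150 in dark zone and 57310 in light zone, and a spike-in share of 1.514%, 2.947% and 2.939%. The summed level of the 49 genes in G2M cells was 17180 CPM in plasma, 26310 in dark zone and 24850 in light zone, yet the median plasma cell showed 36.5 of the 49 genes and the median dark zone cell 30. With every cell thinned to 10000 counts the sums were 16700, 27160 and 25050 CPM and the median numbers of genes 30.5, 27 and 24. CPM gives a share of the counts of a class, and amounts per cell were not tested.

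The rarer states were compared on counts summed per group, and no mitosis gene passed in any of these comparisons. The prePC.Act state (29 cells) against germinal centre B cells gave a median of 0.46 log2 over the 49 genes and -0.06 over all genes (edgeR, 1.21% of 10995 genes called, 1 member at an unadjusted p under 0.05). Ccnb1 was at 1.12 ± 0.50, Top2a at 0.35 ± 0.47 and Hmgb2 at -0.26 ± 0.21 log2. Against plasma cells all 49 estimates for prePC.Act were above 0, with a median of 1.02 against -0.34 over all genes (0.291% of genes called, 2 members unadjusted) and Hmgb2 at 1.01 ± 0.26. The prePC.Mem state against plasma cells gave a median of -0.36, which lay above the -1.48 over all genes (0.0728% called, 5 members unadjusted). Mki67 had 332.3 and 719 CPM in the C57BL/6F and C57BL/6M pools of prePC.Mem against 195.4 and 186.9 in the plasma pools. The LZtoDZ state gave medians of 0.02 against dark zone and 0.55 against light zone cells, where those over all genes were -0.26 and -0.15 (0.1% and 0.173% called, 0 members unadjusted in both). In the prePC.Act pools Ccnb1 had 470.9 and 500.8 CPM, above the 73.98 to 351.1 CPM of the 6 germinal centre pools. Only edgeR was run on these fits.

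In cells called S, the prePC.Act state against germinal centre cells and against plasma cells, and LZtoDZ against germinal centre cells, had no member past the threshold (edgeR, 2.37%, 0.0442% and 0.0972% of genes called, with 6, 1 and 4 members at an unadjusted p under 0.05). In cells called G2M these states were too few for a pool in both groups, and their summed levels are given only as values: 18130 CPM in 15 prePC.Act, 20050 in 12 LZtoDZ and 22280 in 5 prePC.Mem cells.

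No mitosis gene passed between C57BL/6M and C57BL/6F by edgeR or DESeq2. Within germinal centre gates 0 of 49 passed (0.23% of 7387 genes called, 1 unadjusted, Tpx2), within the pre-plasma gate 0 of 49 (0.744% called, 2 unadjusted, Pttg1 and Kif20b), and within the plasma cell gate 0 of 42 tested (0.665% called, 0 unadjusted). Between plasma cell and germinal centre gates, C57BL/6F plates alone called 5 genes and C57BL/6M plates alone 21, but the test of the difference itself, an interaction term in edgeR, called 0 of 49 (0% of 6865 genes called, 0 unadjusted).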

How the data were processed

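Expression was measured in single sorted cells by FB5P-seq, which counts the 5′ ends of transcripts, with 22 preamplification cycles per the labels. The aligner STAR 2.5.3a, the counter HTSeq 0.9.1 and the build mm10 are named in the submitters' processing notes. The authors deposited counts in whole numbers, not divided by length and with no value above 1024; the highest count of a mitosis gene in a cell was 825. The authors' cycle values are a score per cell in the deposited table, from steps not given in the sources used here, and its spike-in share is a fraction of counts per the deposited values. The table's letters F and M place plates in C57BL/6F or C57BL/6M; plate names match no sample title.

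Counts were summed per plate and class in pools of at least 5 cells, scaled by TMM, filtered with filterByExpr by class, and tested with edgeR 4.0.16 (R 4.3.3; estimateDisp, glmQLFit, glmQLFTest) with Benjamini-Hochberg adjustment over all genes tested. The plate was the block where at least 10 plates held both classes, so the pairing comes from the plate itself; otherwise the group was. Rare states and the added comparisons within phases were summed per group and state in 1 fit. SE is the log2 difference divided by the root of F. CPM values beside a test are TMM-scaled; summed levels and levels by phase are plain CPM. The steps were tested on simulated data. Alternatives were DESeq2 1.42.0, no filter, other pool sizes, no immunoglobulin genes, cells thinned to 10000 counts (1271 cells, 96 shallower left out), each group's plates alone, no block and leaving out pools. Depth is 3208858 to 11908095 counts per plate outside plate 6.

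The members and lists were chosen with earlier results of these data known. Named in each comparison are up to 12 members past the threshold per direction, the 6 most abundant, Mki67, Top2a and Ccnb1, and up to 3 other mitosis genes per direction; further names were chosen after their values were seen.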

Additional observations from a re-analysis of the deposited data

Results flagged for a closer look

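The share of G2M calls in the plasma cell gate of C57BL/6M was 13.04% on plate 11, with the next plate at 8.696%, a gap large against the range of the 10 plates. Of 16 groups of plates looked at in this way it was the one that stood apart, and chance marks about 1 in 20 groups. The same plate gave 1 of the 3 plasma pools of the G2M comparison, where its Hmgb2 level of 668.8 CPM and its Cks2 level of 102.1 CPM were the lowest of the 3, its Ccnb2 level of 499.3 CPM was the lowest by little, and its Cdca8 level of 544.9 CPM was the highest.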

How the results depend on the processing

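Of the genes called, 691 alternative values stayed past the threshold, 178 did not, and none changed sign. Called genes that an alternative fit no longer tested are in neither number. With thinned cells, for example, 28 of the 34 called between plasma and germinal centre gates had a value. Plasma against germinal centre gates gave 34 on all plates, 5 on C57BL/6F and 21 on C57BL/6M plates; plasma against pre-plasma gates 36, 3 and 21; pre-plasma against germinal centre gates 6, 2 and 1, with 11 by DESeq2 (7 higher). Annotated dark against light zone gave 5, then 0 on C57BL/6F and 2 on C57BL/6M plates, 19 by DESeq2, 8 with thinned cells and 12 with no filter. Annotated plasma against germinal centre B cells gave 20, then 7 on C57BL/6F plates, 33 by DESeq2 and 35 thinned. Without the plate as replicate block the pairing by plate was lost and the counts were 26, 29, 2, 0, 23 and 1 for plasma against germinal centre, plasma against pre-plasma, pre-plasma against germinal centre, dark against light gate, annotated plasma against germinal centre B, and annotated dark against light zone. The cause was not tested.

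Pools of at least 3 cells gave 11 genes between plasma and germinal centre B cells in G2M and 0 between dark and light zone in G2M. There the 1 gene called is Nek2, with 0 counts in both light zone pools; leaving out pools gave 1 to 12. Leaving out 1 plasma pool in G2M gave 1 to 3 of the 4 calls: 1 without plate 11, 2 without plate 8, 3 without plate 17. In the fits per group, leaving out a pool gave 0 to 1 in G2M (0 without the C57BL/6F plasma pool), 1 to 3 in G1 and 0 to 1 in S for plasma, 0 to 1 for dark against light zone in G1 (1, Ckap2l, with all pools; 0 thinned), and 0 to 8 for prePC.Mem against plasma (8 without its C57BL/6M pool). Without immunoglobulin genes 1 gene passed in S for plasma and for prePC.Act against germinal centre cells, and thinned 1 for prePC.Act against plasma.

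Of the genes not called, Mki67, Top2a and Ccnb1 were the ones recomputed, outside leaving out pools and the added fits within phases, and their signs turned as follows, in log2. Ccnb1 between the dark and light zone gates became 0.10 in pools of 10 cells, 0.01 on C57BL/6M plates, 0.05 thinned and 0.16 without the block. Between pre-plasma and germinal centre gates, on C57BL/6M plates Mki67 became 0.01 and Top2a -0.04, and Top2a -0.05 thinned and 0.0 with no filter. Thinned, Mki67 became -0.12 in prePC.Act against germinal centre B and -0.01 in LZtoDZ against dark zone cells, Ccnb1 -0.09 in the latter and Top2a 0.37 in LZtoDZ against light zone. With 3 cells per pool, dark against light zone gave Ccnb1 0.51 and Top2a -0.08 in G2M, and Ccnb1 1.43, Mki67 1.47 and Top2a 0.78 in S.

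Plasma against germinal centre B cells in S had 1 plasma plate pool, so its other settings, and those by gate in S and G2M, were not run. Thinning cells moved the number of all genes called between plasma and germinal centre B cells, summed per group, from 482 to 739 in G1, from 301 to 367 in S and from 326 to 430 in G2M.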
